A study of Homo sapiens with 2 samples.

Results

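The genes described here encode the proteins that detect double-stranded or otherwise foreign RNA in a cell, and the enzyme that edits double-stranded RNA. They were chosen by name, with earlier results of these data known, and number 10 of the 26370 gene names in the files: DDX58 (RIG-I), IFIH1 (MDA5), DHX58 (LGP2), MAVS, EIF2AK2 (PKR), ADAR, ZBP1, TLR3, DDX60 and DDX60L. RNA was measured in CHME3, an immortalised human line that the labels call microglia, at passages 4 to 6. The treated library came from CHME3 cells given muscarinic receptor antagonists, which block a family of acetylcholine receptors, at 5 µg/ml, and the untreated library from CHME3 cells given none. The compound and the length of exposure are not given in the sources used here. With 1 library per condition no difference below has a replicate check, no p-value is given, and intervals compare these 2 libraries, not the conditions.

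RIG-I and MDA5 are helicases that bind viral or misplaced cellular RNA in the cytosol and then engage MAVS, an adaptor on mitochondria, which leads to transcription of interferon genes. Interferon in turn raises transcription of many of the sensors. ADAR converts adenosine to inosine in double-stranded RNA, which keeps the cell's own RNA from being read as foreign by MDA5, PKR and ZBP1. In microglia and other brain cells these pathways are known for their part in the response to neurotropic viruses and in the inherited interferonopathy called Aicardi-Goutières syndrome.

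Promoter sequence shows a feature that 3 of the genes share. Sequence was not used to choose the genes. They were chosen by name, and interferon raises transcription of many sensors, so the feature is not independent of that choice. A RefSeq table of promoters on GRCh38.p14 held 10 records for 8 of the 10 genes, and none for DHX58 or ZBP1. The 250 bases before each start were searched on both strands for GAAA, any 2 bases and GAAA again, the core of the interferon-stimulated response element. IFIH1 had 3 matches, DDX60 had 2 and DDX60L had 2, while DDX58, MAVS, EIF2AK2, TLR3 and the 3 records of ADAR had none in this window. Of all 35116 promoter records, 3.02% held a match, as did 3.71% of the 27305 genes they belong to. The table's start of DDX58 lies 128 bases downstream of its start in the deposited files. For EIF2AK2 it lies 67 bases downstream of the main start in the files. The start of the EIF2AK2 transcript NM_001135652 lies 9158 bases from the record, and the bases before it were not searched. No ADAR record matches the p150 start in the files, the nearest lying 549 bases upstream of it, so the bases just before that start were not searched. Nor were those before the ADAR start at 154606300, which lies 2497 bases from the nearest record. The 160 bases before the start are shown for the 3 genes, from the minus strand in each case and 5′ to 3′, with the matches in capitals. IFIH1 lies at chr2:162318685-162318844, DDX60 at chr4:168318753-168318912 and DDX60L at chr4:168480493-168480652.
IFIH1: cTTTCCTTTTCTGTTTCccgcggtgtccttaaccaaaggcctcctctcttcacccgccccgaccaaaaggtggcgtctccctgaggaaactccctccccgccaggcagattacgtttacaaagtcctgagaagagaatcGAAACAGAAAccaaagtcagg
DDX60: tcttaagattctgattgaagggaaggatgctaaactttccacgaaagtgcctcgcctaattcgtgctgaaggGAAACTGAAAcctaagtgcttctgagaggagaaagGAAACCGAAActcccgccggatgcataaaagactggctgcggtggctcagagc
DDX60L: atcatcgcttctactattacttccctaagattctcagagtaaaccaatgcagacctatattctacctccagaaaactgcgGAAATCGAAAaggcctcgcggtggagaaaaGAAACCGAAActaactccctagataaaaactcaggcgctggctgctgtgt

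In IFIH1 the first run of capitals holds 2 overlapping matches read from the opposite strand, which begin 159 and 153 bases before the start, and the third match begins 21 bases before it. The matches began 88 and 53 bases before the start in DDX60, and 80 and 50 bases before it in DDX60L. The match nearer the start had the same 10 letters, GAAACCGAAA, in both of these neighbouring genes. The transcripts in the deposited files begin 24 bases (IFIH1), 55 bases (DDX60) and 22 bases (DDX60L) upstream of the starts in this table, so the matches nearest to the start in IFIH1 and DDX60 fall inside the first exon as the files draw it. The same windows were searched for TTC, any 3 bases and GAA, the gamma-activated sequence, a pattern that reads alike on both strands and can overlap the first motif. It was present in DDX60 and TLR3 among the 8 genes, and in 6.57% of all records and 8.09% of all genes in the table. A match is a run of letters and not evidence that a factor binds there.

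Levels were compared in FPKM, which scales fragments by transcript length and by library size, added up over each gene's transcripts. The order of the 8 detected genes was the same in both libraries, running from ADAR through EIF2AK2, MAVS, DDX58, DDX60, IFIH1 and DDX60L to DHX58. ADAR stood at 70.4 FPKM in the treated and 64.1 FPKM in the untreated library, 4.47 times (treated) and 4.51 times (untreated) the level of EIF2AK2, the next in order. Neighbours in this order were apart by their 95% Poisson intervals, which cover counting error only, except DDX60 and IFIH1 in the treated library. ZBP1 and TLR3 had no FPKM in either library.

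**Figure D1:**
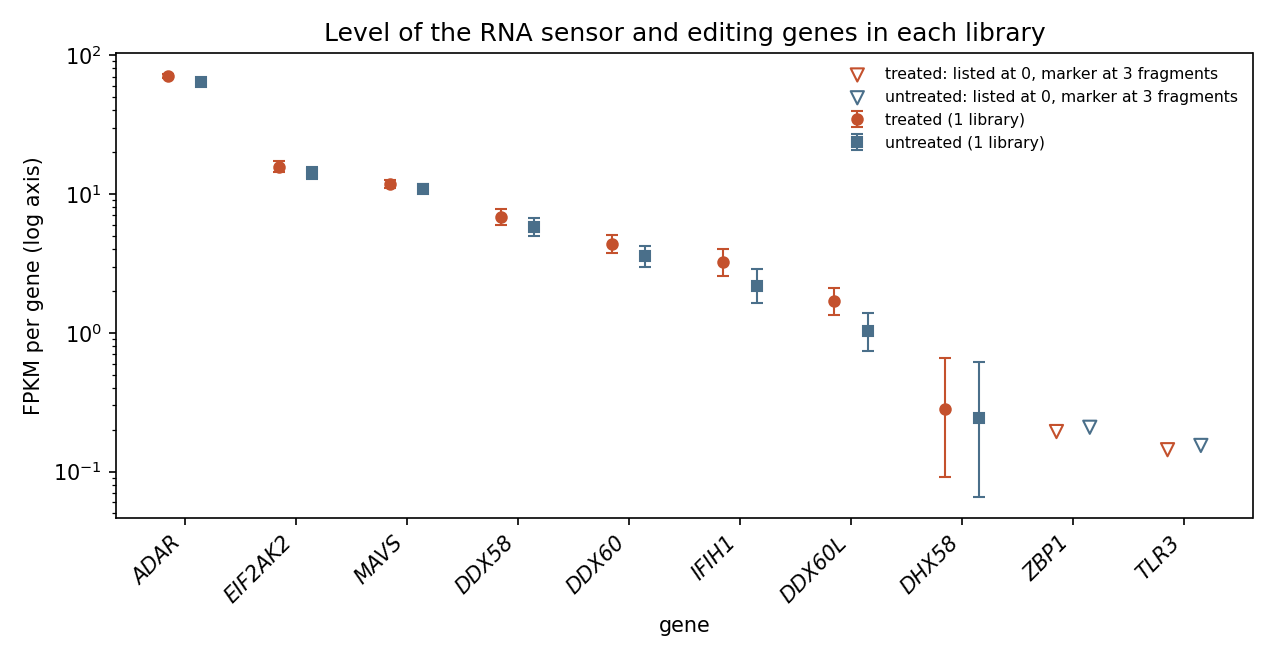
FPKM per gene (log axis) for the 10 genes in the treated (circles) and untreated (squares) libraries, 1 library each, with 95% Poisson intervals on estimated fragments. Open triangles mark the FPKM that 3 fragments would give for ZBP1 and TLR3, which were listed at 0. The 8 detected genes run from ADAR at 70.4 FPKM treated and 64.1 FPKM untreated down to DHX58 at 0.281 FPKM treated and 0.242 FPKM untreated.

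Each of the 7 genes whose mean over the libraries reached 1 FPKM was higher in the treated library, by small amounts. In bulk RNA, more cells that express a gene and more of its RNA per cell cannot be told apart. Among all 11668 genes over that floor, 50.7% were higher. On the scale of log2 of (treated FPKM + 1) over (untreated FPKM + 1), the 7 genes ran from 0.093 for MAVS to 0.41 for DDX60L with a median of 0.21, against a median of 0.0026 and quartiles of -0.098 and 0.11 for all genes. None of the 7 reached 1.5-fold in either direction on this scale, a size that 1.20% of all genes passed upward and 1.03% passed downward. DDX60L and IFIH1 had a log2 ratio of at least 0.32, 2 of 7, where the share of all genes was 5.49%, and none of the 7 was lower by as much, where the share was 4.29%. The upward share depends on level: it was 11.8% among genes at 1 to 5 FPKM, where DDX60L, IFIH1 and DDX60 lie, and 2.91% among genes at 5 FPKM or more, where the other 4 lie and none passed. The genes were chosen with this contrast known, so these counts describe them and support nothing further.

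**Figure D2:**
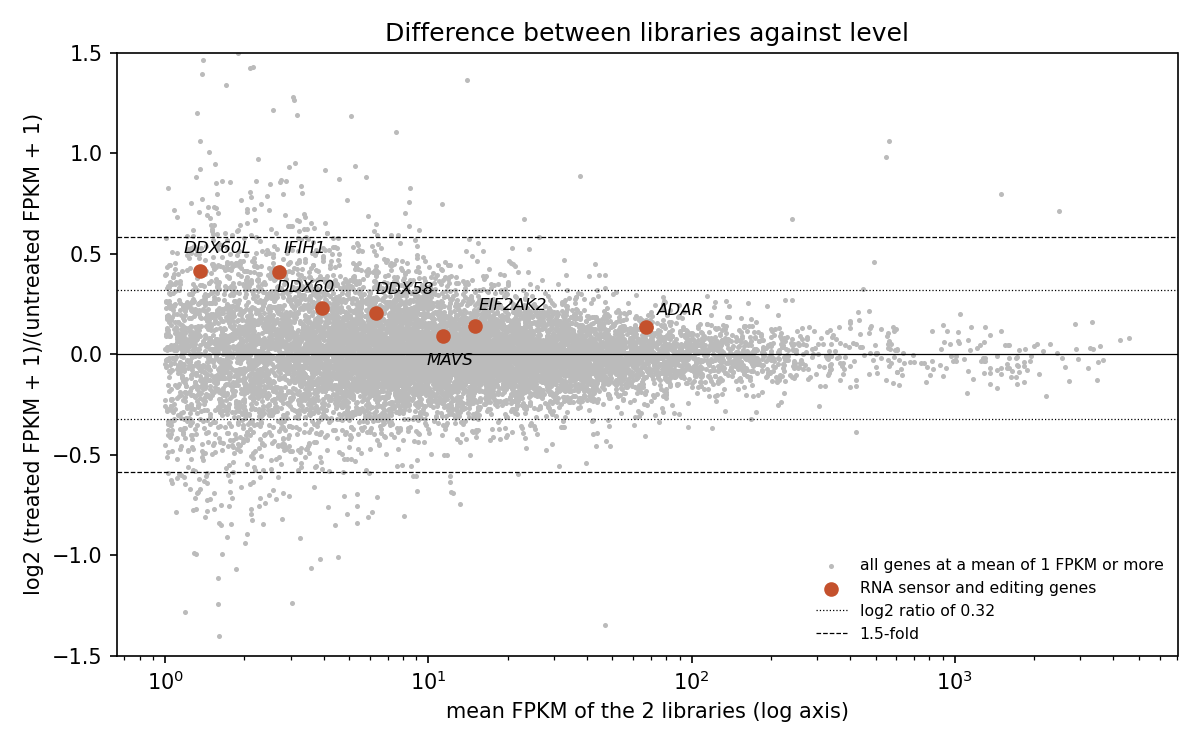
log2 of (treated FPKM + 1) over (untreated FPKM + 1) against the mean FPKM of the 2 libraries (log axis). Grey points are all genes whose mean reached 1 FPKM, red points the 7 RNA sensor and editing genes over that floor, and lines mark log2 ratios of 0.32 and 1.5-fold. The 7 red points lie between 0.093 and 0.41, and grey points beyond 1.5 in either direction are outside the axis.

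Among the RIG-I-like receptors, MDA5 differed most between the libraries and LGP2 was barely detected. IFIH1, the sensor of long double-stranded RNA (chromosome 2, 162267079 to 162318708, minus strand), was at 3.24 FPKM in the treated and 2.19 FPKM in the untreated library, with 79 treated and 50 untreated fragments behind these values. The FPKM ratio was 1.48, with a 95% counting interval of 1.03 to 2.15, and 3.10% of genes over the floor had a higher log2 ratio. That share was 3.04% for DDX60L, 10.5% for DDX60, 12.1% for DDX58, 19.7% for EIF2AK2, 20.7% for ADAR and 27.3% for MAVS. The authors' own bounds for IFIH1, 2.51 to 3.97 FPKM treated and 1.57 to 2.81 FPKM untreated, overlap. DDX58, which recognises short RNA with a 5′ triphosphate (chromosome 9, 32455302 to 32526324, minus strand), had 6.82 FPKM treated and 5.77 FPKM untreated, on 222 treated and 175 untreated fragments. Its ratio of 1.18 had an interval of 0.965 to 1.45, which holds 1. DHX58, which lacks the signalling domains of the other two and modulates them (chromosome 17, 42101406 to 42112733), had 0.281 FPKM treated and 0.242 FPKM untreated, on 5 treated and 4 untreated fragments. No difference in DHX58 was detectable at this depth, since the interval of its ratio of 1.16 ran from 0.25 to 5.86.

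The adaptor MAVS (chromosome 20, 3846799 to 3876123, plus strand) had a total whose ratio between the libraries has an interval that holds 1, while 2 of its transcripts had bounds apart. MAVS had 11.7 FPKM in the treated and 10.9 FPKM in the untreated library, on 991 treated and 860 untreated fragments; the ratio was 1.07 (0.978 to 1.18). Its full-length coding transcript NM_020746, of 540 amino acids in GENCODE, was at 10.8 FPKM treated and 9.01 FPKM untreated. The shorter NM_001206491, which lacks an exon of 175 bases and encodes 399 amino acids, was at 0.169 FPKM treated and 0.912 FPKM untreated. The authors' bounds of both coding transcripts were apart between the libraries, in opposite directions. The transcript NR_037921, non-coding in RefSeq and without an exon of 173 bases, was at 0.799 FPKM treated and 1.02 FPKM untreated with overlapping bounds. In shares of the gene's FPKM, NM_020746 made up 91.7% treated and 82.4% untreated, and NM_001206491 made up 1.44% treated and 8.34% untreated. These 2 transcripts differ only by that exon of 175 bases, so the division of fragments between them is an estimate by the authors' software.

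PKR, the kinase that halts translation when it binds double-stranded RNA, also differed among its transcripts. EIF2AK2 (chromosome 2, 37105141 to 37157047, minus strand) had 15.7 FPKM in the treated and 14.2 FPKM in the untreated library, on 452 treated and 380 untreated fragments, and the ratio was 1.11 (0.965 to 1.27). Its most abundant transcript, NM_001135651, was at 13.3 FPKM treated and 13.7 FPKM untreated, with overlapping bounds. NM_002759, which differs from it by 234 further bases in 1 exon, was at 1.74 FPKM treated and 0.492 FPKM untreated. NM_001135652, which starts downstream and lacks an internal exon of 123 bases, was at 0.670 FPKM treated and at 0.00010 FPKM untreated. The bounds of both minor transcripts were apart, each higher in the treated library. The transcripts share most of their exons, so the division of fragments among them is an estimate by the authors' software. With the most abundant transcript alone the log2 ratio of EIF2AK2 was -0.037.

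ADAR (chromosome 1, 154582058 to 154627980, minus strand) has a start whose transcripts encode the interferon-inducible, partly cytoplasmic p150 and other starts whose transcripts encode the constitutive nuclear p110. The totals given above rest on 3294 treated and 2796 untreated fragments, and their ratio was 1.10 (1.04 to 1.16). The 3 transcripts that begin at 154608248, which include the p150 form of 1226 amino acids, summed to 34.3 FPKM treated and 30.6 FPKM untreated, or 48.8% of the gene treated and 47.7% untreated. The transcript that begins at 154627980 and encodes 931 amino acids, the p110 form, was at 34.4 FPKM treated and 32.9 FPKM untreated, or 48.9% treated and 51.4% untreated. The ratio was 1.12 (1.04 to 1.21) for the p150 start and 1.04 (0.972 to 1.12) for this p110 start, and the 2 intervals overlap. A further transcript of the p110 form, NM_001193495, begins at 154606300 and had 1.65 FPKM treated and 0.572 FPKM untreated, with a ratio of 2.88 (1.82 to 4.72).

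Within the p150 start, the full-length form was not the one that was higher in the treated library. NM_001111 was at 23.3 FPKM treated and 24.6 FPKM untreated, with overlapping bounds. NM_015840, shorter by 78 bases in 1 exon and encoding 1200 amino acids, was at 9.44 FPKM treated and 5.98 FPKM untreated, and its bounds of 8.10 to 10.8 treated and 4.89 to 7.08 untreated were apart. NM_015841, shorter by 135 bases over 2 exons, was at 1.58 FPKM treated and 0.00021 FPKM untreated. The starts of ADAR differ in first exons of 257 bases (p150), 126 bases and 295 bases (p110), NM_015840 and NM_015841 differ from the rest in internal exons too, and each transcript shares most of its 15 exons with the others, so the division of fragments among them is an estimate by the authors' software.

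**Figure D3:**
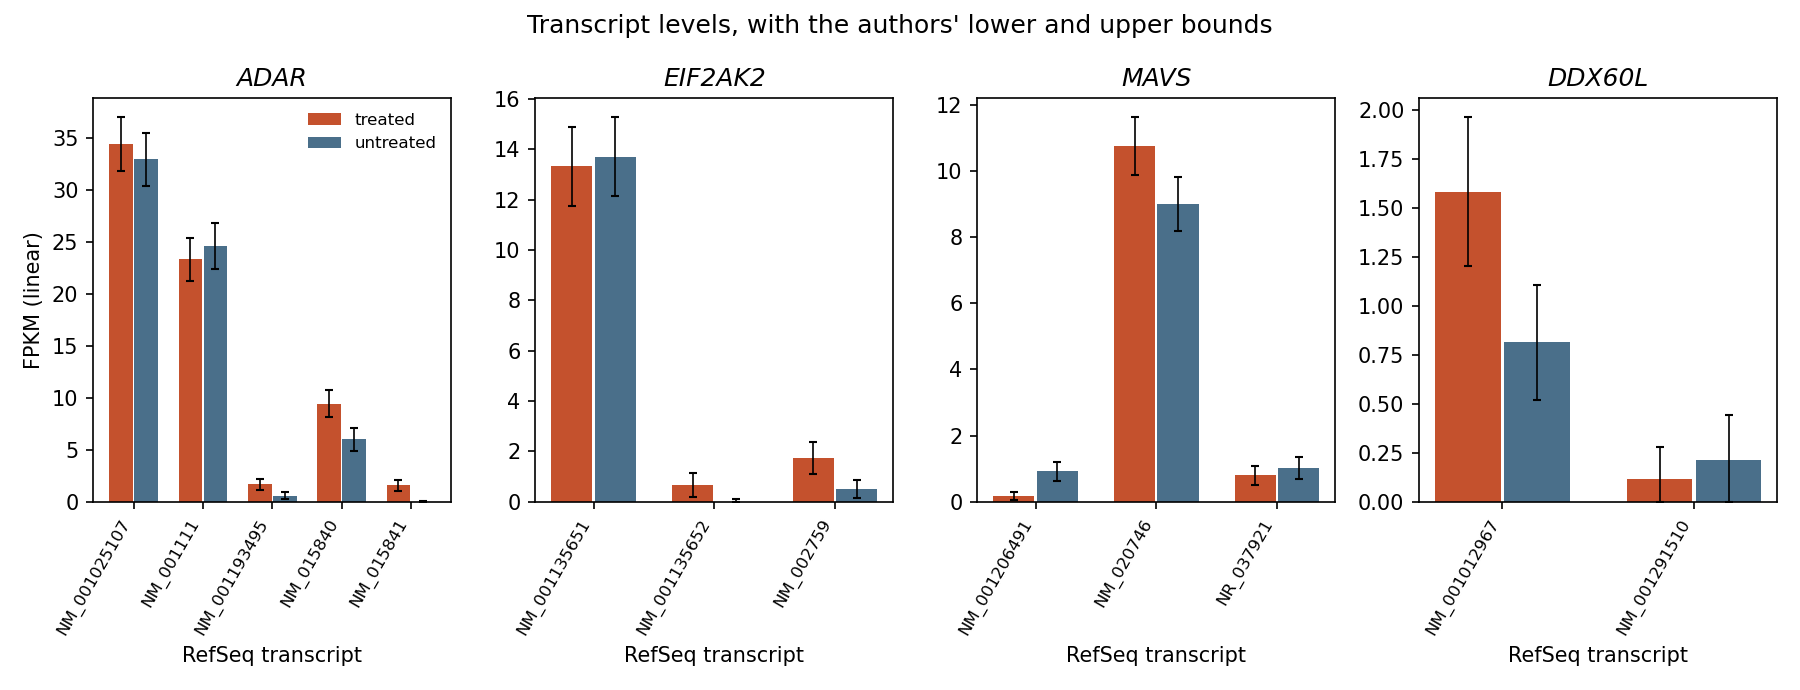
FPKM of each RefSeq transcript of ADAR, EIF2AK2, MAVS and DDX60L in the treated (left bar of each pair) and untreated (right bar) libraries, 1 library each, on linear axes that differ between genes. Error bars are the lower and upper bounds the authors deposited. NM_020746 of MAVS stands at 10.8 FPKM treated and 9.01 FPKM untreated, and NM_001111 of ADAR at 23.3 FPKM treated and 24.6 FPKM untreated.

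Across the 4 genes over the floor with several transcripts (ADAR, EIF2AK2, MAVS and DDX60L), 13 transcripts reached 0.1 FPKM in a library. The authors' bounds were apart upward in 7 of the 13 and downward in 1. Such calls were common elsewhere too: among 17678 transcripts chosen the same way from all genes, 11.1% were apart upward and 10.7% downward. These bounds leave out error between cultures, and transcripts of 1 gene are not independent.

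The helicases DDX60 and DDX60L, antiviral relatives that lie next to each other on chromosome 4 with 37927 bases between them, were both higher in the treated library. DDX60L (168356735 to 168480514, minus strand) had 1.70 FPKM treated and 1.03 FPKM untreated, on 80 treated and 43 untreated fragments. Its ratio of 1.65 (1.13 to 2.45) was the largest of the 8 detected genes. Its long transcript NM_001012967 was at 1.58 FPKM treated and 0.813 FPKM untreated with bounds apart, and its short transcript NM_001291510 at 0.115 FPKM treated and 0.213 FPKM untreated with bounds that overlap. DDX60 (168216291 to 168318807, minus strand) had 4.34 FPKM treated and 3.56 FPKM untreated, on 181 treated and 143 untreated fragments, with a ratio of 1.22 (0.974 to 1.53). The 2 genes are paralogs, and reads that fit both could have been divided between them in a way the files do not record.

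Both remaining receptors were listed at 0. TLR3, the endosomal receptor for double-stranded RNA (chromosome 4, 186069155 to 186085098), would have reached 0.144 FPKM in the treated and 0.154 FPKM in the untreated library with 3 fragments. ZBP1, which binds Z-form RNA and can start necroptosis (chromosome 20, 57603846 to 57620576), would have reached 0.194 FPKM treated and 0.209 FPKM untreated with 3 fragments on its longest transcript. RIPK3, the kinase that ZBP1 recruits, was also listed at 0 in both libraries. MLKL, which permeabilises the membrane in necroptosis, was at 0.957 FPKM treated and 1.38 FPKM untreated, on 14 treated and 18 untreated fragments. Its ratio of 0.691 had an interval of 0.318 to 1.47, which holds 1. TICAM1, the adaptor of TLR3, was at 11.6 FPKM treated and 12.6 FPKM untreated. No other gene in the files overlaps any of the 10 genes.

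Genes that relay or restrain RNA sensing were divided about evenly between higher and lower in the treated library. Of the signalling relays below the RIG-I-like receptors, 30 of 33 in the files were over the floor, 15 higher and 15 lower, with a median log2 ratio of 0.0022. Of the 30, 3 had a log2 ratio of at least 0.32, 0 were lower by as much, and 0 reached 1.5-fold. The shares of all genes past 0.32 were 5.49% upward and 4.29% downward. IKBKB, a kinase of the NF-kB pathway, was at 8.48 FPKM treated and 5.91 FPKM untreated, a ratio of 1.44 (1.17 to 1.77). CASP8 was at 3.07 FPKM treated and 2.14 FPKM untreated, and its ratio of 1.43 (0.939 to 2.21) has an interval that holds 1. FADD, the adaptor of CASP8, was at 20.1 FPKM treated and 15.6 FPKM untreated, a ratio of 1.29 (1.05 to 1.57). TBK1, the kinase that activates IRF3, was at 8.43 FPKM treated and 9.81 FPKM untreated, and IRF3, the transcription factor that turns on interferon genes, at 35.3 FPKM treated and 41.7 FPKM untreated, a ratio of 0.846 (0.733 to 0.977). Of the brakes on sensing, 14 of 26 over the floor were higher and 12 lower, with a median of 0.013. Among these 26, 2 had a log2 ratio of at least 0.32 and 1 was lower by as much. TKFC, an inhibitor of MDA5, was at 4.35 FPKM treated and 2.93 FPKM untreated, a ratio of 1.48 (1.10 to 2.01). TNFAIP3, a ubiquitin-editing enzyme, was at 1.66 FPKM treated and 0.848 FPKM untreated, with a ratio of 1.96 (1.21 to 3.26), and ATG12, an autophagy conjugation factor, at 7.64 FPKM treated and 10.7 FPKM untreated.

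The RNA-binding partners of the sensors were also centred near 0. Of the helicases and double-stranded RNA binding cofactors, 14 of 29 over the floor were higher and 15 lower, with a median log2 ratio of -0.0091. DHX9, a nuclear RNA helicase, was at 70.6 FPKM treated and 67.5 FPKM untreated, PRKRA, the protein activator of PKR, at 25.6 FPKM treated and 24.9 FPKM untreated, and ZNFX1, an interferon-induced RNA sensor, at 21.7 FPKM treated and 17.6 FPKM untreated, with a ratio of 1.24 (1.11 to 1.38). STAU2, which binds double-stranded RNA, was at 9.08 FPKM treated and 7.96 FPKM untreated. NLRP3, an inflammasome sensor, was at 1.249 FPKM treated and 2.37 FPKM untreated, on 36 treated and 63 untreated fragments. Its ratio was 0.527 (0.340 to 0.806). Of the PKR and eIF2 pathway, 9 of 18 were higher and 9 lower, with a median of -0.00074. Among these 18, 2 had a log2 ratio of at least 0.32 and 0 were lower by as much. The shares of all genes were 5.49% upward and 4.29% downward. EIF2S1, the alpha subunit of eIF2 that PKR phosphorylates, was at 30.3 FPKM treated and 29.9 FPKM untreated. DDIT3, a stress-induced transcription factor, was at 13.3 FPKM treated and 10.3 FPKM untreated, with a ratio of 1.29 (0.906 to 1.85). MAP2K6, a p38 kinase kinase, was at 1.91 FPKM treated and 0.779 FPKM untreated, on 23 treated and 9 untreated fragments. Its ratio was 2.45 (1.09 to 6.01). It was the 1 gene of the 18 to reach 1.5-fold in FPKM + 1, a size that 1.20% of all genes passed upward. NCK1, an adaptor protein, was at 5.70 FPKM treated and 7.29 FPKM untreated.

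**Figure D4:**
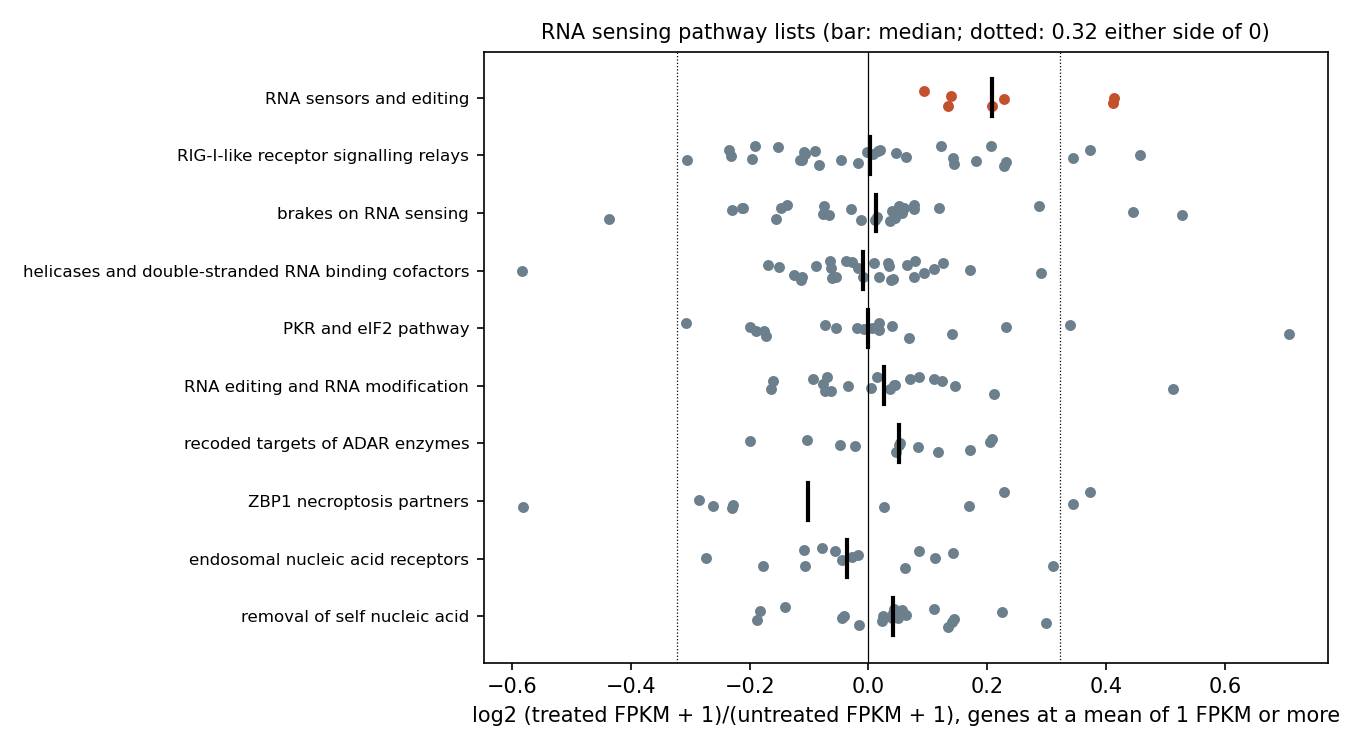
log2 of (treated FPKM + 1) over (untreated FPKM + 1) for each gene over the floor of 1 FPKM in the RNA sensor and editing genes (top, red) and in the lists of related genes (grey), with a bar at each list's median and dotted lines at a log2 ratio of 0.32 on either side of 0. The median is 0.21 for the 7 sensor and editing genes, and lies between -0.10 and 0.052 for the other lists.

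Other RNA editing genes and edited transcripts had medians near 0. Of the RNA editing and modification genes, 20 of 32 in the files were over the floor, 12 higher and 8 lower, with a median log2 ratio of 0.026. ADARB1, the second catalytically active adenosine deaminase of double-stranded RNA, was at 12.3 FPKM treated and 12.2 FPKM untreated, a ratio of 1.01 (0.887 to 1.15). APOBEC3B, a cytidine deaminase, was at 22.5 FPKM treated and 19.3 FPKM untreated, with a ratio of 1.17 (0.953 to 1.43), and AIMP2, reported to promote degradation of ADAR enzymes, at 19.1 FPKM treated and 13.1 FPKM untreated, with a ratio of 1.46 (1.10 to 1.94). ADAT3, of the enzyme that deaminates adenosine in transfer RNA, was at 4.26 FPKM treated and 4.90 FPKM untreated. Of the transcripts known to be recoded by editing, 8 of 12 over the floor were higher and 4 lower, with a median of 0.052. FLNA, the actin crosslinker filamin A, was at 459 FPKM treated and 397 FPKM untreated, BLCAP at 44.5 FPKM treated and 51.3 FPKM untreated, and CDK13, a cyclin-dependent kinase, at 7.74 FPKM treated and 6.58 FPKM untreated. These are transcript levels, and editing itself was not measured. Of the genes that remove the cell's own nucleic acids, 14 of 20 over the floor, ADAR among them, were higher and 6 lower, with a median of 0.041. TREX1, a DNA exonuclease, was at 10.8 FPKM treated and 8.62 FPKM untreated, a ratio of 1.26 (0.959 to 1.65). RNASEH2B and RNASEH2C, subunits of an enzyme that cuts RNA paired with DNA, were at 9.42 FPKM treated and 7.92 FPKM untreated (RNASEH2B) and at 18.1 FPKM treated and 20.8 FPKM untreated (RNASEH2C).

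The partners of ZBP1 and the endosomal receptors had medians below 0. Of the necroptosis partners, 5 of 10 over the floor were higher and 5 lower, with a median log2 ratio of -0.10. CASP8 and FADD, counted among the relays above, had a log2 ratio of at least 0.32. CASP6, a caspase, was lower by as much, at 3.15 FPKM treated and 5.21 FPKM untreated. The shares of all genes at that size were 5.49% upward and 4.29% downward. Of the endosomal receptors and their partners, 5 of 14 over the floor were higher and 9 lower, with a median of -0.037. UNC93B1, which carries TLR3 to endosomes, was at 18.9 FPKM treated and 23.1 FPKM untreated, a ratio of 0.819 (0.698 to 0.962). IRAK4, a kinase of other TLRs, was at 2.73 FPKM treated and 2.01 FPKM untreated, a ratio of 1.36 (0.953 to 1.95). CD14, a co-receptor, was at 1.63 FPKM treated and 1.97 FPKM untreated, on 16 treated and 19 untreated fragments. The ratio of CD14 was 0.826 (0.397 to 1.70). Interferon transcripts were near absent: 19 of 21 interferon genes were listed at 0 in both libraries, IFNB1 among them, where 3 fragments would give 0.627 FPKM treated and 0.674 FPKM untreated.

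The libraries held an estimated 7301216 fragments (treated) and 6805866 fragments (untreated). Microglia markers were mostly missing: of 29, the files put 23 below 1 FPKM in both libraries and 15 at 0 in both, including the defining AIF1, TMEM119, CX3CR1, PTPRC and ITGAM, and the list summed to 119 FPKM treated and 127 FPKM untreated. Of 18 fibroblast and mesenchymal markers, 11 were over the floor, and these summed with the rest to 6457 FPKM treated and 5943 FPKM untreated. FN1, at 3021 FPKM treated and 2725 FPKM untreated, and VIM, at 2025 FPKM treated and 1967 FPKM untreated, made up most of that sum, while 5 of the 18 were at 0 in both libraries: COL3A1, DCN, FAP, LUM and POSTN. Of 15 neural and astrocyte markers, 13 were under 1 FPKM in both. RNA18S5, the 18S ribosomal RNA, named after its value was seen, was at 759 FPKM treated and 363 FPKM untreated, a ratio of 2.09 (2.01 to 2.17). RNA28S5, the 28S ribosomal RNA, was at 504 FPKM treated and 456 FPKM untreated, a ratio of 1.10 (1.08 to 1.13), and the part of these differences in the values of the sensors was not tested.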

How the data were processed

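The submitters' processing notes name TopHat, Cuffdiff and the build hg38, without versions. Every line of both files names Cufflinks as its source. The authors deposited FPKM values per RefSeq transcript, with lower and upper bounds; these are not counts. FPKM was added up per gene, and genes whose mean over both libraries reached 1 FPKM were compared on log2(FPKM + 1), which understates the ratio of low genes.

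In genes with 1 transcript, fragments were taken as (2 × FPKM / (upper bound - FPKM)) squared, where 21.3% of 5992 treated and 21.1% of 5931 untreated values of at least 3 fragments were whole within 0.01. For other genes they were estimated from FPKM, length and a depth fitted to the whole values. They are estimates. Intervals of a ratio are 95% exact conditional binomial, and those of a level exact Poisson. Both cover counting error only, leaving out isoform assignment and PCR duplicates. A difference printed without an interval may lie within counting error.

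The fold rule and the counting interval were tried on simulated Poisson counts. Planted folds were larger than those of the sensor genes and lay only in genes at 5 FPKM or more. The simulation assumes the same counting error as the interval, so it checks the arithmetic and not that assumption. The members and lists were chosen with earlier results of these data known. Named are all members and their transcripts at 0.1 FPKM or more in a library. From the pathway lists, genes past 1.5-fold are named, with up to 3 genes per list of largest absolute log2 ratio. A further 10 genes were fixed by their place in the pathway. Cell type markers and ribosomal RNAs named beyond that rule were chosen after their values were seen. Promoters came from RefSeq, protein lengths from GENCODE 29, matched by identical introns. Python 3.11.15, scipy 1.17.1 and pandas 2.3.3 were used.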

Additional observations from a re-analysis of the deposited data

How the results depend on the processing

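None of the 7 genes reached 1.5-fold with a pseudocount of 1, and the count stayed at 0 with a pseudocount of 5, with no floor, with a floor of 5 FPKM, with the most abundant transcript, under both scalings, at 2-fold, and where the authors' summed bounds had to be apart. Over these settings the share of all genes ran from 0.30% (pseudocount of 5) to 3.21% (most abundant transcript). Some of the settings could not have raised the count. A cut of 2-fold is stricter than 1.5-fold. The floor of 5 FPKM kept 4 genes and dropped DDX60L and IFIH1, which had the largest ratios. Removing the floor added only DHX58, ZBP1 and TLR3, all below 1 FPKM. The count was 1 with a pseudocount of 0.1 and 1 with fragments scaled to library size in place of FPKM, DDX60L in each case. The shares of all genes there were 2.55% (pseudocount of 0.1) and 1.32% (scaled fragments). For a log2 ratio of at least 0.32 the count was 2, where the share was 5.49%. The median log2 ratio of 0.21 ran from 0.13 to 0.24 over the alternatives. The log2 ratio of EIF2AK2 turned to -0.037 with the most abundant transcript alone, by construction without its minor transcripts, and that of MAVS was 0.23 there; the other 5 genes kept a positive sign in every alternative that gave them a value. The factors of the 2 scalings were 0.0026 and 0.0051 on the log2 scale. Depth limits DHX58, with 5 treated and 4 untreated fragments, DDX60L, with 80 treated and 43 untreated, and IFIH1, with 79 treated and 50 untreated. No paired analysis was possible because each condition has 1 library.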
